A study of Mus musculus with 9 samples.

Results

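Gene expression was compared between N171-82Q mice given a WNT5B virus and N171-82Q mice given a control virus, in 6 of the 9 libraries of the series. The members are the libraries titled HD-WNT5B, 3 in number, and those titled HD-Control, also 3, and each group is 1 virus in mice of 1 genotype. N171-82Q mice model Huntington's disease (HD): both groups carry the same transgene, which makes an N-terminal piece of human huntingtin with an expanded glutamine repeat. The control virus was pAAV-GFAP(pro)-Control-mCherry and the other virus pAAV-GFAP(pro)-WNT5B-P2A-mCherry, adeno-associated virus vectors in which the promoter of the astrocyte gene GFAP drives a red fluorescent protein alone or WNT5B together with it. Per the series' text the injection was into the striatum, while the tissue is labelled only as brain. The labels give no age or sex, no time after injection and no link from library to animal, so the p-values below measure the spread between these libraries, which may be technical. The 3 libraries of wild-type mice given the control virus enter no test here.

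WNT5B is a secreted Wnt ligand of the non-canonical branch, in which Frizzled receptors and the co-receptors ROR and RYK signal through Dishevelled to small GTPases, the kinase JNK or calcium rather than through beta-catenin. Calcium activates the phosphatase calcineurin, which lets NFAT transcription factors enter the nucleus, where they bind DNA at a GGAAA core. MMP14 is a membrane-bound metalloproteinase that cuts extracellular matrix and activates other proteinases. The title of the series names WNT5B, NFATc2 and MMP14 in astrocytes as a pathway. The striatum is made mostly of spiny projection neurons, which are the neurons most affected in HD, and its astrocytes clear glutamate and buffer potassium.

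The libraries differed in technical measures as completely as in virus. The deposited values are read counts divided by 1 factor per library, so 1 read was worth 0.616 to 0.797 in the control-virus libraries and 1.61 to 2.14 in the WNT5B libraries. By these steps the control-virus libraries held 69800000 to 90600000 reads and the WNT5B libraries 37300000 to 52100000 reads. The deposited values summed to 55600000 to 55800000 in the control-virus group and 79900000 to 83800000 in the WNT5B group. At least 1 read was found for 17163 to 17281 genes in the control-virus libraries and for 14198 to 14505 genes in the WNT5B libraries. Thinned to the depth of the shallowest WNT5B library, 37300000 reads, the control-virus libraries would be expected to show 16795 to 16811 genes, more than any WNT5B library. The median standard deviation of a gene's log2 value was 0.032 between control-virus libraries and 0.228 between WNT5B libraries, over genes with a group mean of at least 100. The correlation of log2 values across genes was 0.998 within the control-virus group, 0.922 to 0.931 within the WNT5B group and 0.805 to 0.822 between groups, and genes are not independent replicates. Virus and these library properties cannot be told apart in this design, and this holds for every difference given here.

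Markers of the striatum, the injected region per the series' text, were present at high values in all 6 libraries, whose label says only brain. Ppp1r1b (DARPP-32), the defining gene of striatal projection neurons, was at 155566, 158590 and 160284 in the control-virus libraries and 81254, 76189 and 86456 in the WNT5B libraries. Penk, the enkephalin precursor of the indirect pathway neurons, was at 92426, 93308 and 92791 in the control-virus libraries and 42250, 39567 and 38516 in the WNT5B libraries. Slc17a7, which loads glutamate into the vesicles of cortical neurons, was far lower at 7595, 7664 and 7674 in the control-virus libraries but reached 16052, 15422 and 14063 in the WNT5B libraries. Among markers of cerebellum, midbrain and hypothalamus, Slc6a3, Gabra6, Pcp2, Hcrt and Oxt were too low to test. Of 7 tested list members, 1 was higher and 2 lower in calls made both before and after the correction for length and GC described below. The summed value of the list was 10668 to 10901 in the control-virus and 12354 to 13383 in the WNT5B libraries. Most of it was Calb1, the member called higher (9671, 9407 and 9669 against 12014.5, 12474 and 11477), so the sum mainly follows that gene. Cbln3, a cerebellar granule cell gene, went from 54.2, 48.7 and 55.4 to no read in any WNT5B library, Prkcd, of thalamus, from 939.9, 970.4 and 944 to 453, 456 and 238, and the hypothalamic peptide gene Avp from 3.19, 2.21 and 4.93 to 62.6, 43.4 and 137, the last called before correction only (log2 difference 3.57 ± 0.97 (SE), adjusted p = 0.00528; corrected 1.05).

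The mouse Wnt5b gene did not pass the test. Wnt5b (ENSMUSG00000030170.14, chr6:119432531-119544347, GRCm38) was at 63.8, 44.2 and 49.3 in the control-virus libraries and 184, 22.5 and 212 in the WNT5B libraries. The WNT5B libraries 1 and 3 lay above all control-virus libraries and library 2 below them, so the groups overlapped. The log2 difference was 0.88 ± 0.82 (SE), adjusted p = 0.348. These values come from reads on the mouse gene, and the labels do not say of which species or codon usage the sequence in the virus is, so they do not measure how much of the vector was expressed. Reads of the vector's mCherry were not analysed here.

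Mmp14 rose and Nfatc2 did not pass the test. Mmp14 (ENSMUSG00000000957.11, chr14:54431612-54445364) was at 759.8, 726 and 824 in the control-virus libraries and 1451, 1511 and 1844 in the WNT5B libraries, and each WNT5B library lay above each control-virus library. Its log2 difference was 1.05 ± 0.23 (SE), adjusted p = 0.00115, in limma fitted over 15103 genes on log2(value + 3). After each library's trend with transcript length and GC content was removed it was still 1.05 (adjusted p = 0.00232). With all 6 libraries scaled to equal totals it was 0.495 and no longer passed (adjusted p = 0.062), while over its other 27 alternatives the adjusted p was 2.24e-05 to 0.0229. Nfatc2 (ENSMUSG00000027544.16, chr2:168476410-168601657) was at 1779, 1752 and 1791 in the control-virus libraries and 1295, 1677 and 2464 in the WNT5B libraries. Its WNT5B libraries spread to either side of the control-virus libraries, with a log2 difference of -0.02 ± 0.17 (SE), adjusted p = 0.922. Its direction depended on the processing, at -0.57 with equal totals (adjusted p = 0.00873) and 0.92 with a correction for length alone (adjusted p = 0.0041).

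Gfap, the intermediate filament gene whose promoter drives the vectors, was at 7985, 8105 and 8136 in the control-virus libraries and 5582, 5198 and 4748 in the WNT5B libraries. It was lower in every WNT5B library, with a log2 difference of -0.64 ± 0.08 (SE), adjusted p = 1.22e-05 (-0.84 after correction). The mouse Htt gene, which is not the transgene, was at 13617, 13564 and 13819 in the control-virus libraries and 8986, 9984 and 8751 in the WNT5B libraries. Its log2 difference of -0.57 ± 0.07 (SE), adjusted p = 1.18e-05 turned to 0.29 (adjusted p = 0.0153) after correction for length and GC, and its longest transcript has 13215 bases.

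**Figure D1:**
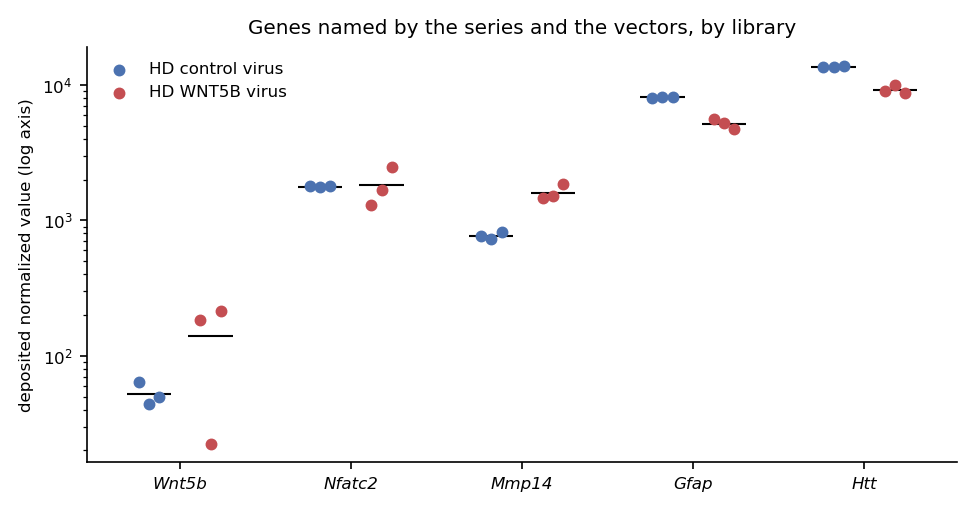
Deposited normalized values (log axis) of Wnt5b, Nfatc2, Mmp14, Gfap and Htt in each library, with 3 points per group and a bar at the group mean. The groups do not overlap for Mmp14, Gfap and Htt and overlap for Wnt5b and Nfatc2.

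The promoter of Mmp14 is shown because the series' title ties this gene to NFAT, and the GGAAA core was searched on either strand in the RefSeq promoter window (GRCm38.p6, from 250 bases before to 20 after the annotated start). Capitals mark the match, which lies on the minus strand of the gene and therefore reads TTTCC at chr14:54431348-54431617, plus strand.
Mmp14: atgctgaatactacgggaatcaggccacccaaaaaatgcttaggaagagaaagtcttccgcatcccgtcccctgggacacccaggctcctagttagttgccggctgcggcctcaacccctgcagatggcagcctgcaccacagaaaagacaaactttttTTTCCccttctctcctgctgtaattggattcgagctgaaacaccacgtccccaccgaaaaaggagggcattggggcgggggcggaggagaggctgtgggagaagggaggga
The window held 1 match. Of the 11740 tested genes with such a window, 55.8% held GGAAA on either strand, and of 15 metalloproteinase list members with a window 6 did (40%). A match of 5 letters is a description of the sequence and not a bound site.

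The 2 groups differed over most of the measured genes. Of 15103 genes that reached a value of 10 in 3 or more of the 6 libraries, 10827 (71.7%) passed an adjusted p of 0.05, 4947 (32.8%) higher and 5880 (38.9%) lower in the WNT5B libraries. Of the called genes 45.69% were higher, and with all 6 libraries scaled to equal totals 30.9% were. That scaling moved the median log2 difference over all genes from -0.215 to -0.757, so a rise smaller than this shift turns its sign there. At least 2-fold differences that passed the test numbered 7684 (50.9%), 3457 of them higher and 4227 lower. The values of the groups did not overlap at all for 11975 genes (79.3%), 37.0% higher and 42.3% lower. A list of genes with these shares of members higher and lower does therefore not stand apart from the rest.

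The differences followed the length of the transcript. With genes in 5 bins by their longest annotated transcript, the median log2 difference was 1.10 for genes up to 2001 bases, 0.13, -0.26 and -0.55 in the bins between, and -1.03 for genes of 5307 bases or more. The trend was present in each WNT5B library: against the control-virus mean, the shortest bin was at 1.13 to 1.27 and the longest at -0.89 to -1.05. It also ran with GC content, from -0.88 in the bin of lowest GC to 0.49 in the highest. Removing a spline on length and GC from each library reduced the gap between the shortest and longest bins from 2.126 to 0.321 and left 9899 genes called (65.5%), 55.82% of them higher. The same direction was called before and after correction for 8191 genes (54.2%), 4279 higher (28.3%) and 3912 lower (25.9%), while 421 (2.79%) were called in opposite directions. From here on a gene is said to have risen or fallen only if it was called in the same direction in both fits. Counts of list members that rose or fell are to be set against these 28.3% and 25.9% of all genes tested. Corrected differences are relative to genes of like length and GC, and a correction cannot tell a technical trend from a change that truly runs with length.

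**Figure D2:**
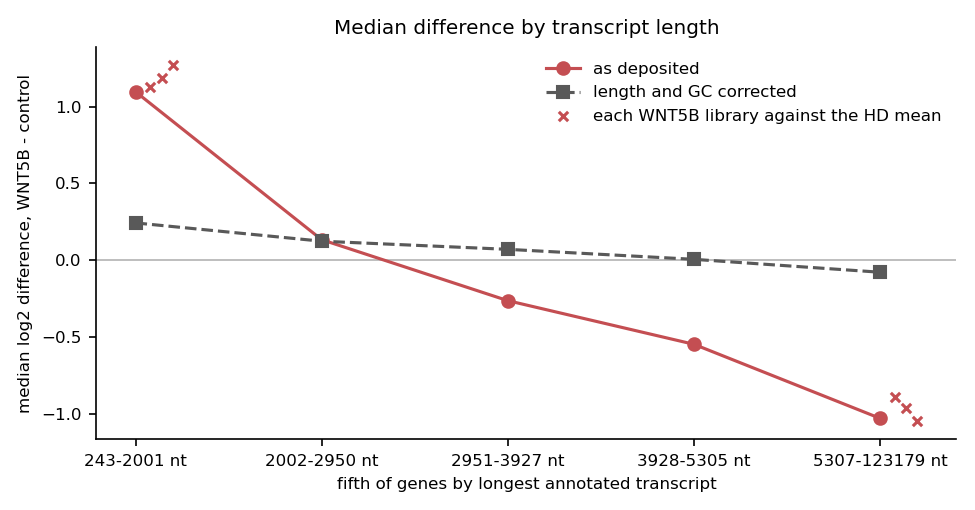
Median log2 difference (WNT5B minus control virus) of the genes in 5 bins of transcript length, in bases, as deposited (circles) and after correction for length and GC (squares), with crosses for each WNT5B library against the control-virus mean. The deposited values run from 1.10 to -1.03 and the corrected ones from 0.24 to -0.08.

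Among the ligands, Wnt4, Wnt7b and Wnt2 rose and Wnt10b and Wnt2b fell. Of 19 Wnt ligands 13 were tested, and 3 rose and 2 fell, against 28.3% and 25.9% of all genes tested. The median log2 difference was 0.21 against -0.215 over all genes tested. Wnt4, which acts in either Wnt branch, was at 123, 165 and 116 in the control-virus libraries and 1139, 1165 and 1362 in the WNT5B libraries (log2 difference 3.16 ± 0.53 (SE), adjusted p = 0.00013; corrected 3.23). Wnt7b, a ligand for brain vessel formation and barrier, was at 575, 569.99 and 574 in the control-virus libraries and 1454, 1576 and 1621 in the WNT5B libraries (log2 difference 1.43 ± 0.18 (SE), adjusted p = 1.12e-05; corrected 1.23). No WNT5B library of these genes reached down into the control-virus range.

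Wnt2 was at 340.4, 311 and 342 in the control-virus libraries and 669, 1001 and 656 in the WNT5B libraries (log2 difference 1.19 ± 0.30 (SE), adjusted p = 0.00284), and with equal totals its difference of 0.64 did not pass (adjusted p = 0.0609). Wnt10b, the ligand with the highest values in the control-virus libraries, was at 2503, 2551 and 2549 in the control-virus libraries and 1105, 834 and 1012 in the WNT5B libraries (log2 difference -1.37 ± 0.15 (SE), adjusted p = 2.07e-06; corrected -1.34). Wnt2b was at 28.7, 31.7 and 46.8 in the control-virus libraries and had no read in any WNT5B library, at least 6.45-fold lower against a floor of 3 reads per library. The corrected calls of Wnt2b and Wnt2 were lost on leaving out a single WNT5B library, library 2 for Wnt2 (0.78, adjusted p = 0.059) and any of the 3 for Wnt2b (adjusted p = 0.0518 to 0.057). Wnt5a, the closest relative of Wnt5b, was at 527, 557 and 509 against 370.3, 345 and 564, overlapping between groups, with a log2 difference of -0.35 (corrected 0.71, adjusted p = 0.118). Wnt8b was lower only before correction (log2 difference -2.47, corrected -2.36, adjusted p = 0.0505). The log2 differences of Wnt3 (-0.35), Wnt7a (0.22), Wnt9a (0.21), Wnt10a (0.63) and Wnt11 (-1.30) did not pass the test. Wnt1, Wnt3a, Wnt6, Wnt8a, Wnt9b and Wnt16 were too low to test, with no value above 6.38 in any control-virus library and 0 in the WNT5B libraries.

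Of the receptors more fell than rose. Of 16 Frizzled genes and co-receptors, all tested, 8 fell and 1 rose, with a median log2 difference of -1.98 (-1.11 corrected; -1.76 with Ror2, which had no WNT5B read, at its bound). Fzd5 was at 692, 724 and 711 in the control-virus libraries and 50.1, 0 and 0 in the WNT5B libraries, so a single WNT5B library held all of its reads there (log2 difference -6.51 ± 0.80 (SE), adjusted p = 8.52e-06; corrected -5.87). Ptk7, a planar polarity co-receptor, was at 1312, 1374 and 1341 in the control-virus libraries and 104, 159 and 62.2 in the WNT5B libraries (log2 difference -3.69 ± 0.34 (SE), adjusted p = 4.99e-07; corrected -3.75). Fzd3, the Frizzled with the highest values and a receptor for axon guidance, was at 8813, 8607 and 8679.9 in the control-virus libraries and 2053, 1431 and 781 in the WNT5B libraries (log2 difference -2.72 ± 0.19 (SE), adjusted p = 3.69e-08; corrected -1.27). In all 3 genes the groups were far apart.

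Ror1, a co-receptor for WNT5 ligands, was at 633, 683 and 638 in the control-virus libraries and 94.8, 94.8 and 77.2 in the WNT5B libraries (log2 difference -2.84 ± 0.38 (SE), adjusted p = 1.77e-05; corrected -1.92). Fzd7 (-3.30), Fzd1 (-2.91), Fzd4 (-1.86) and Lrp6 (-2.09), the last a beta-catenin branch co-receptor, also fell on the log2 scale. Without WNT5B library 1 Fzd1 was at -1.27 and did not pass (adjusted p = 0.0896), nor did it with 1 spread for both groups (0.102) or with the replicate block (0.0633; 0.0775 corrected). The corrected call of Fzd4 was lost without WNT5B library 2 (-0.80) or 3 (-0.72). Fzd2 was the member that rose, from 342, 315 and 319.5 to 1882, 1343 and 1542 (log2 difference 2.26 ± 0.24 (SE), adjusted p = 2.13e-06; corrected 2.21). Ror2, another WNT5 co-receptor, was at 12, 18.4 and 17.9 in the control-virus libraries and at 0 in the WNT5B libraries, and did not pass (adjusted p = 0.0544). It passed in 14 of its 26 alternatives, such as equal totals (adjusted p = 0.036), no filter (0.0106), 1 spread for both groups (0.000629) and the replicate block (0.00835), so its side of the threshold depended on the processing. Ryk was at 2028, 2012 and 1898 against 3068, 1891 and 2477 and differed only after correction (0.30, corrected 0.73). Fzd6 (-1.66) and Lrp5 (-1.10) were lower before correction only, and Fzd8 (0.45), Fzd9 (-0.03) and Fzd10 (-1.10) passed in neither fit.

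**Figure D3:**
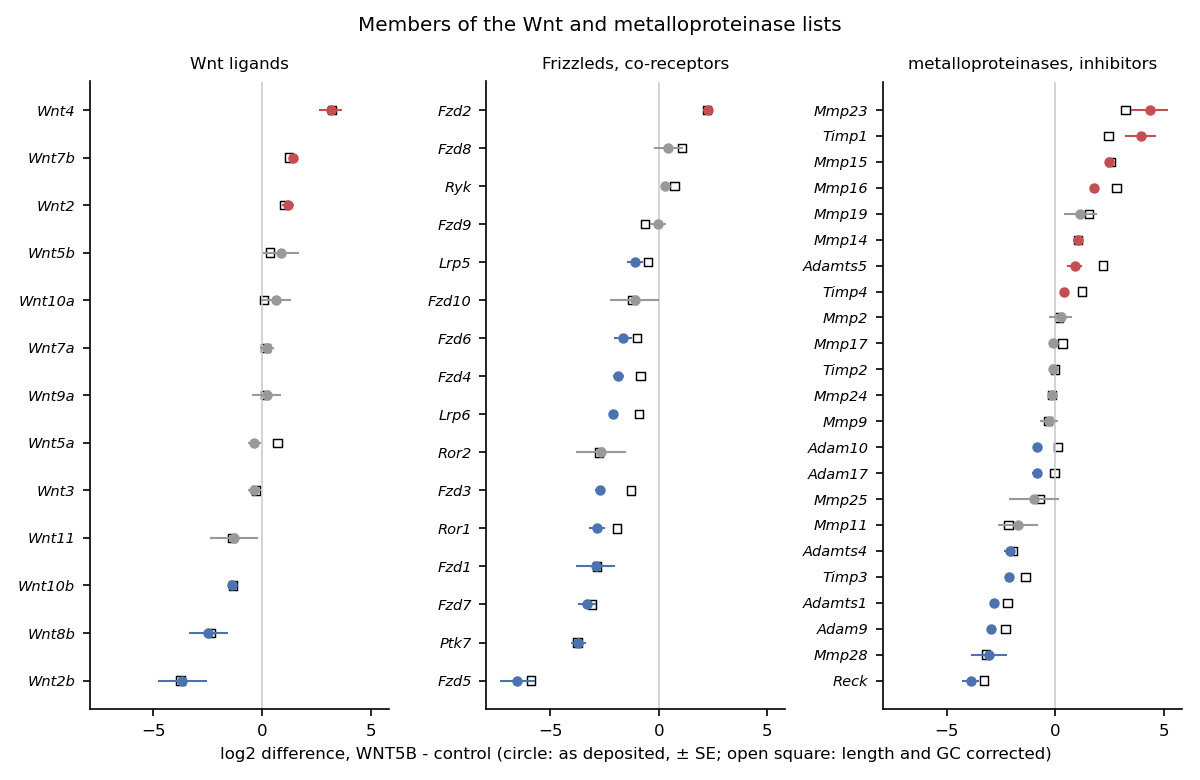
Log2 differences (WNT5B minus control virus) of the tested Wnt ligands (13), Frizzled genes and co-receptors (16) and metalloproteinases with their inhibitors (23). Filled circles with SE bars are the deposited values (red higher, blue lower, grey not past the threshold) and open squares the values after correction for length and GC; the receptors lie mostly below 0, the other lists on either side.

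Downstream of the receptors the members moved in either direction. Of 24 non-canonical effectors 6 rose and 7 fell, near the 28.3% and 25.9% of all genes tested. Their median log2 difference of -0.55 became 0.25 after correction. Vangl2, a core planar polarity membrane protein, rose from 459, 448 and 472 to 3255, 3254 and 2284 (log2 difference 2.65 ± 0.19 (SE), adjusted p = 3.41e-08; corrected 3.22). Its paralog Vangl1 was at 229.6, 231 and 267 against 267, 165 and 195, overlapping (log2 difference -0.23). Of the Dishevelled genes, Dvl2 rose (1464, 1548 and 1567 against 2672, 3323 and 3444; log2 difference 1.03 ± 0.15 (SE), adjusted p = 4.05e-05) and Dvl3 fell (2818, 2888 and 2879 against 1148, 2043 and 1452; log2 difference -0.93 ± 0.16 (SE), adjusted p = 0.000145). Dvl1 (0.40), the formin Daam1 (0.36), Prickle1 (0.41) and the GTPase Rac1 (0.26) were called higher in both fits, but their signs turn with equal totals. Without WNT5B library 1 Dvl1 (0.32), Daam1 (0.25) and Prickle1 (0.35) did not pass, nor did Prickle1 without library 3 (0.36). Rac1 shares 51.4% of its exon bases with other genes.

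Camk2a, the calcium-dependent kinase of excitatory synapses, fell from 86741, 87709 and 88064 to 20824, 20001 and 20144 (log2 difference -2.11 ± 0.06 (SE), adjusted p = 4.25e-12; corrected -1.75). Camk2b (-0.45), Camk2g (-0.75), the cytoskeletal kinase gene Rock2 (-1.99), Daam2 (-1.92) and Celsr3 (-1.09) fell as well on the log2 scale, of which Camk2b (0.02) and Celsr3 (0.02) turned sign with a correction for length alone. Of the JNK genes, Mapk8 lost its call after correction and the other two turned sign: Mapk8 was at -1.47 (corrected -0.24), Mapk9 at -0.55 (corrected 0.26) and Mapk10 at -0.47 (corrected 0.66). Likewise Prickle2 (-0.54), Prkca (-0.31), Rhoa (-0.75) and Rock1 (-1.25) were lower before correction and at 0.52, 0.84, 0.25 and 0.06 after it. Celsr1 (-1.51) and Celsr2 (-0.63) were lower before correction only, and Camk2d was at -0.13 (corrected 0.90).

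In the NFAT and calcineurin list, subunits of the same enzyme moved apart. Of 16 members 3 rose and 3 fell, against 28.3% and 25.9% of all genes tested. Ppp3ca, the main brain catalytic subunit of calcineurin, was at 121694, 119495 and 119665 in the control-virus libraries and 217657, 206430 and 188263 in the WNT5B libraries (log2 difference 0.76 ± 0.06 (SE), adjusted p = 1.47e-07; corrected 1.59). Ppp3r1, its regulatory subunit, was at 84604, 83423 and 83931 in the control-virus libraries and 29313, 28432 and 28476 in the WNT5B libraries (log2 difference -1.55 ± 0.06 (SE), adjusted p = 6.08e-11; corrected -0.87). Neither gene overlapped between groups. Itpr2, the calcium release channel of astrocyte stores, rose from 1213, 1234 and 1183 to 5618, 4602 and 4520.4 (log2 difference 2.01 ± 0.13 (SE), adjusted p = 1.14e-08; corrected 3.0).

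The NFAT genes themselves did not rise: Nfat5, the tonicity-responsive member, fell (12525, 12501 and 12462 against 2774, 2631 and 1909; log2 difference -2.38 ± 0.10 (SE), adjusted p = 3.76e-10), Nfatc3 was lower before correction only (-1.04, corrected -0.04), and Nfatc1 (-0.99, adjusted p = 0.0634) and Nfatc4 (0.36) did not pass. Rcan1, a calcineurin inhibitor that is itself an NFAT target, was at 4686, 4786 and 4804 against 3552, 3241 and 3832 and fell (log2 difference -0.43 ± 0.10 (SE), adjusted p = 0.00144; corrected -0.72). Rcan2 rose (0.55, corrected 1.12), by about the shift that equal totals bring. Ppp3cb (-0.05, corrected 0.86), Ppp3cc (-0.78) and Rcan3 (-0.03) did not pass before correction, Itpr1 was at -0.57 (corrected 0.42), and Cabin1 (-0.72) and Itpr3 (-1.47) were lower before correction only.

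Mmp14 was not the only membrane-bound metalloproteinase to rise. Of 23 tested metalloproteinases and inhibitors 7 rose and 6 fell, near the 28.3% and 25.9% of all genes tested. Mmp15 was at 468, 476 and 481 in the control-virus libraries and 2640.1, 2986 and 2241 in the WNT5B libraries (log2 difference 2.45 ± 0.17 (SE), adjusted p = 3.89e-08; corrected 2.55). Mmp16 was at 1385, 1369 and 1446 in the control-virus libraries and 5650.4, 5180.1 and 3829.9 in the WNT5B libraries (log2 difference 1.78 ± 0.14 (SE), adjusted p = 1.29e-07; corrected 2.81). Mmp17 (-0.09) and Mmp24 (-0.16), also tied to the membrane, did not pass in the deposited values. In Mmp14, Mmp15 and Mmp16 each WNT5B library lay above each control-virus library.

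Mmp23 was near the limit of detection in the control-virus libraries, at 3.99, 7.37 and 6.16 against 109, 204 and 238 (log2 difference 4.35 ± 0.85 (SE), adjusted p = 0.000516). Timp1, an inhibitor induced in reactive glia, was also low at 9.57, 13.3 and 9.85 against 231, 122 and 307 (log2 difference 3.92 ± 0.73 (SE), adjusted p = 0.000358; corrected 2.44). Its corrected call was lost without WNT5B library 1 (2.32) or 3 (2.21). Timp3, which is bound to the matrix, fell from 10281, 10431 and 10313 to 2551, 2299 and 2179 (log2 difference -2.14 ± 0.09 (SE), adjusted p = 1.91e-10; corrected -1.38). Reck, a membrane inhibitor of MMP14, fell from 1133, 1113 and 1097 to 132, 61 and 45 (log2 difference -3.90 ± 0.38 (SE), adjusted p = 9.74e-07; corrected -3.27). So the inhibitors did not move together.

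Adam9 (-2.94), Adamts1 (-2.81), Adamts4 (-2.10) and Mmp28 (-3.06) fell, and Adamts5 (0.88, corrected 2.18) and Timp4 (0.40, corrected 1.24) rose. Timp4 turned its sign with equal totals (-0.16) and did not pass without WNT5B library 2 (0.36), and Adamts5 did not pass with equal totals (0.33, adjusted p = 0.387) or without library 1 (0.77), 2 (0.98) or 3 (0.89) of the WNT5B group. The sheddases Adam10 (-0.83) and Adam17 (-0.84) were lower before correction only. Mmp2 (0.24), Mmp9 (-0.29), Timp2 (-0.12), Mmp11 (-1.74), Mmp19 (1.15) and Mmp25 (-0.99) did not pass, and Mmp3 had no read in any of the 6 libraries.

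The largest changes were differences between nearly absent and abundant. The 15 largest rises of named genes had transcripts with a median length of 995 bases, and the 15 largest falls 3267 bases, against 3415 bases over all genes tested. Gp1bb, a platelet adhesion receptor subunit, went from 245, 232 and 101 to 44677, 52239.6 and 55298 (log2 difference 8.12 ± 1.17 (SE), adjusted p = 3.61e-05), but 92.9% of its exon bases lie in other genes, and the libraries carry no strand, so the source of these reads is uncertain. Atp5e, a small subunit of the mitochondrial ATP synthase, went from 1466, 1397 and 1331 to 126246, 127835 and 113454 (log2 difference 6.45 ± 0.13 (SE), adjusted p = 4.56e-13; corrected 6.08). Nrtn, neurturin, a GDNF family growth factor, went from 112, 125 and 158 to 5859.7, 7284 and 6229 (log2 difference 5.59 ± 0.45 (SE), adjusted p = 1.31e-07; corrected 3.80). Genes of other tissues were among the rises as well: the olfactory receptor gene Olfr671 had no read in the control-virus libraries and 247, 78.7 and 172 in the WNT5B libraries, at least 77.1-fold higher. The other rises were Ccnb1ip1 (log2 difference 7.32), Jsrp1 (6.23), Ndufa2 (6.17), Olfr394 (5.89), Atp5k (5.68), Nanos3 (5.64), Ttc36 (5.63), Guca1a (5.60), Npff (5.55), Lst1 (5.54) and Spa17 (5.51). The corrected call of Ttc36 was lost without WNT5B library 1 (3.67) or 3 (3.77).

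Every one of the 15 largest falls had less than 1 read in at least 1 WNT5B library, and 8 had no read in any. Hey2, a transcriptional repressor downstream of Notch, was at 348, 336 and 348 in the control-virus libraries and 0, 0 and 6.43 in the WNT5B libraries (log2 difference -6.30 ± 0.73 (SE), adjusted p = 4.69e-06). Uprt, a pyrimidine salvage gene, was at 247, 257 and 275 in the control-virus libraries and had no read in the WNT5B libraries, at least 46.9-fold lower against the 3-read floor. Magee2 was likewise at 226, 234 and 219 and at 0, at least 40.9-fold lower. Dennd3, an activator of Rab GTPases, was at 788, 743 and 757 in the control-virus libraries and 134, 0 and 0 in the WNT5B libraries. For Sept2 the row with the change is a gene model on chromosome 1 whose exon bases are all shared with another gene (100%), at 3726, 3841 and 3780.4 in the control-virus libraries and without a read in the WNT5B libraries, at least 683-fold lower. The other row named Sept2, a gene model over the same bases, was at 476, 329 and 392 in the control-virus libraries and 1578, 1611 and 1569.7 in the WNT5B libraries, so the 2 models moved in opposite directions, and how reads were divided between them was not tested. Pakap (at least 174-fold), Rsc1a1 (110.2), Pcdha7 (62.7), Fsbp (36.6) and Capn6 (36.3) also had no read in any WNT5B library, each fold lower being a bound against the same floor. Most exon bases of Rsc1a1 (100%), Pakap (98.2%), Moap1 (87.7%) and Pcdha7 (59.9%) are also shared with other genes, so the source of their reads is uncertain as well; 6 of the 30 largest changes share 50% or more. The log2 differences of Moap1 (-6.90), Pstpip2 (-6.54) and Slbp (-5.94) rest on 1 or 2 WNT5B libraries with reads, as do those of Pcdhga12 (-6.18) and Fzd5. More generally, of 10035 genes with a control-virus mean of at least 500, 40 had no read in exactly 1 WNT5B library, 9 in 2 and 6 in all 3. In the reverse direction, of 9798 genes with a WNT5B mean of at least 500, none lacked reads in 1 or 2 control-virus libraries and 1 did in all 3.

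Genes of the ribosome and of mitochondrial respiration rose together, and were the lists with the highest medians along with blood cells. Of 79 cytosolic ribosomal protein genes 69 rose and 1 fell, with a median log2 difference of 2.84 (1.57 corrected) against -0.215 (0.06 corrected) over all genes. Rpl36 was at 4193, 4158 and 4169.7 in the control-virus libraries and 181675, 189502 and 184498 in the WNT5B libraries (log2 difference 5.47 ± 0.06 (SE), adjusted p = 6.57e-15; corrected 2.49). Rps24, whose longest transcript has 4059 bases, was at 10525, 10238 and 10326 in the control-virus libraries and 231816, 239501 and 214719 in the WNT5B libraries (log2 difference 4.46 ± 0.07 (SE), adjusted p = 7.68e-14; corrected 5.26). Rps6 was the member that fell (log2 difference -1.05 ± 0.10 (SE), adjusted p = 5.94e-07), and it was named after its values were seen. Their summed value was 768590 to 782760 in the control-virus libraries and 6628900 to 7111400 in the WNT5B libraries. Many of these genes have processed pseudogenes with near-identical sequence, so the split of their reads is uncertain.

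Of 46 complex I genes 34 rose and 2 fell (median 2.38, corrected 1.53), and of 37 other genes of oxidative phosphorylation 29 rose and 3 fell (median 2.04, corrected 1.36). Ndufa5, an accessory subunit of complex I, was at 2601, 2562 and 2562 in the control-virus libraries and 70566, 76655 and 75161 in the WNT5B libraries (log2 difference 4.84 ± 0.07 (SE), adjusted p = 5.21e-14; corrected 3.53). Uqcrq, of complex III, was at 2396, 2322 and 2327 in the control-virus libraries and 52292, 53382 and 49167 in the WNT5B libraries (log2 difference 4.46 ± 0.08 (SE), adjusted p = 1.97e-13; corrected 3.90). Not every member rose by as much. The core complex I subunit Ndufs1 was at a log2 difference of -1.78 (corrected -1.32; named after its values were seen) and the ATP synthase beta subunit Atp5b at 0.84 (corrected 0.48). Of 78 mitochondrial ribosomal genes 59 rose and 4 fell (median 1.89, corrected 1.55), and of 38 proteasome genes 30 rose and 1 fell (median 1.54, corrected 1.33). Psmd1, a proteasome scaffold with a transcript of 3112 bases, was at 7856, 7905 and 8040.2 against 104147, 106645 and 85969 (log2 difference 3.63 ± 0.07 (SE), adjusted p = 4.32e-13; corrected 4.13).

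The median longest transcript was 1059 bases for the ribosomal protein genes, 1171 for complex I, 1867 for the mitochondrial ribosome and 1851 for the proteasome, against 3415 over all genes, so these are lists of short genes. The corrected medians stayed above 1 in each, and the part that length played beyond the correction was not tested.

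Because these lists moved together, promoters are shown for a member with a large rise from each of 3 lists (RefSeq, GRCm38.p6). Holding the ETS core CCGGAAG between 100 bases before and 20 after the start, the window shown, was a condition of this choice. That all 3 hold it is therefore not a result. The choice did not cover every list member, so these need not be the largest rises among members with this core. ETS factors such as GABPA are known regulators of nuclear genes for mitochondria and ribosomes. Capitals mark the motif on either strand.
Rpl38: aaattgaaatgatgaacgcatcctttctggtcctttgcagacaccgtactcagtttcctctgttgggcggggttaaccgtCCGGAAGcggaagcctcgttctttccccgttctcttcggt
Ndufb7: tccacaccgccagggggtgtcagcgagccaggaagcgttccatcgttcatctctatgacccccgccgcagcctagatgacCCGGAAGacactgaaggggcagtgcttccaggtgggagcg
Atp5k: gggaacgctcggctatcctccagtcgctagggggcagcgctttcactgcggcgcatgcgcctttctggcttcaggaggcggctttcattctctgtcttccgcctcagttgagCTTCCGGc
They lie at chr11:114668480-114668599 (plus strand), chr8:83566658-83566777 (plus strand) and chr5:108434380-108434499 (minus strand). The motif was in the window from 250 bases before to 20 after the start in 23 of 59 ribosomal protein genes with a window (39%), 5 of 40 complex I genes (12.5%), 11 of 29 other oxidative phosphorylation genes (37.9%), 21 of 69 mitochondrial ribosomal genes (30.4%) and 10 of 32 proteasome genes (31.2%). It was in 1730 of 11740 windows of all genes tested (14.7%). The share in complex I genes was thus near that of all genes, and the other lists lay above it. The windows of all genes were not matched to the lists in GC content. A match is again a description of the sequence and not a bound site, and a part of ETS factors in these rises was not tested. Chosen after their values were seen, these 3 genes had large rises. Rpl38 was at 5402, 5249 and 5188 in the control-virus libraries and 169360, 173309 and 155523 in the WNT5B libraries (log2 difference 4.97 ± 0.08 (SE), adjusted p = 9.25e-14). Ndufb7 was at 2608, 2765 and 2818 in the control-virus libraries and 64093, 67543 and 65200.5 in the WNT5B libraries (log2 difference 4.59 ± 0.11 (SE), adjusted p = 2.12e-12). Atp5k was at 2634, 2618 and 2566 in the control-virus libraries and 142771, 140312 and 118751 in the WNT5B libraries (log2 difference 5.68 ± 0.08 (SE), adjusted p = 4.47e-14).

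**Figure D4:**
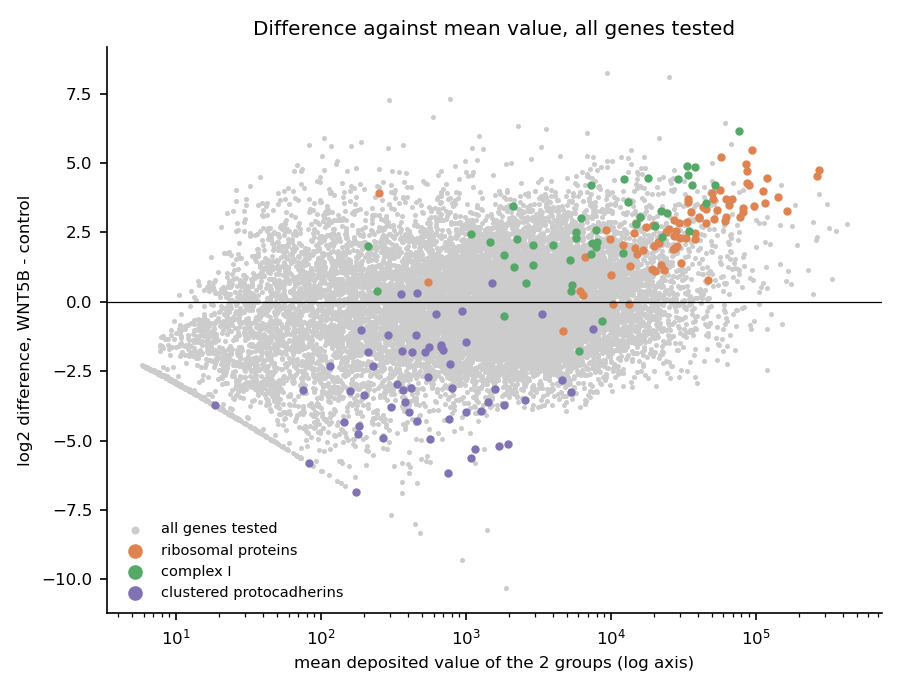
Log2 difference (WNT5B minus control virus) against the mean deposited value of the groups (log axis) for the 15103 genes tested, 1 point per gene. Ribosomal protein (79) and complex I (46) genes lie mostly above 0 and clustered protocadherins (56) mostly below.

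Clustered protocadherins, the cell surface proteins that give neurons single-cell identity, had the lowest median of the 45 lists. Of 56 members 38 fell and 1 rose, with a median log2 difference of -3.15 (-2.65 corrected). Pcdhgc5 was at 7957, 8177 and 8212 in the control-virus libraries and 1411, 1253 and 875 in the WNT5B libraries (log2 difference -2.81 ± 0.13 (SE), adjusted p = 8.97e-10; corrected -2.39). Pcdhga3 was at 3336, 3359.5 and 3192 in the control-virus libraries and 195, 41.1 and 82.2 in the WNT5B libraries (log2 difference -5.19 ± 0.36 (SE), adjusted p = 3.08e-08; corrected -4.82). Their summed value was 85948 to 86631 in the control-virus and 23235 to 25186 in the WNT5B libraries. Genes of the alpha and gamma clusters share 3' exons within their cluster. Reads from these exons can be split among members, so the values of single members there are uncertain.

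In striatal projection neurons the markers moved in either direction. Of 29 tested members 8 rose and 11 fell, against 28.3% and 25.9% of all genes tested. The summed value was nearly level, at 988400 to 994350 in the control-virus and 963330 to 991800 in the WNT5B libraries. Ppp1r1b fell, with a log2 difference of -0.96 ± 0.07 (SE), adjusted p = 2.89e-08. Penk fell as well, with -1.21 ± 0.06 (SE), adjusted p = 5.88e-10. Pde10a, the phosphodiesterase of these neurons, went from 69172, 69089.5 and 69183 to 10766, 9885 and 7143 (log2 difference -2.92 ± 0.09 (SE), adjusted p = 1.79e-11; corrected -1.91). Foxp1, a transcription factor of the same neurons, went the other way from 25681, 25449.9 and 25286 to 220725, 231370 and 192033 (log2 difference 3.07 ± 0.06 (SE), adjusted p = 4.85e-13; corrected 4.23). Rgs9, their G-protein regulator, also rose, from 29108, 29027 and 29135 to 101292, 105540 and 104417 (log2 difference 1.83 ± 0.05 (SE), adjusted p = 7.96e-12). Genes listed as markers of 1 cell type thus differed in opposite directions, each without overlap between the groups. How far other cells that express them took part was not tested. In whole tissue, fewer cells of a type and less RNA per cell cannot be told apart.

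Among 14 interneuron markers 1 rose and 6 fell. Slc5a7, the choline transporter of cholinergic interneurons, went from 2067, 2055 and 2097 to 48.3, 88.3 and 101 (log2 difference -4.72 ± 0.31 (SE), adjusted p = 2.06e-08; corrected -3.61). Pvalb, of fast-spiking interneurons, rose from 535, 505 and 501 to 5269, 5980.1 and 4355 (log2 difference 3.32 ± 0.17 (SE), adjusted p = 1.36e-09; corrected 2.23). Among 15 markers of cortical excitatory neurons 4 rose and 2 fell, and their summed value was 29639 to 29949 against 59008 to 77192. The median log2 difference was -0.34 (0.50 corrected), so it and the sum differ in sign. Much of the sum's rise was Mef2c, which other neurons also express, at 10265, 10150 and 10227 against 39755, 36608 and 24740. Neurod2, a transcription factor of those neurons, went from 613, 535 and 582 to 3060.4, 2854 and 2685 (log2 difference 2.31 ± 0.22 (SE), adjusted p = 8.07e-07; corrected 2.10). How far the share of cortex in the dissected tissue moved with these results was not tested.

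Astrocyte markers split evenly. Of 24 tested members 11 rose and 9 fell, and their summed value was 579580 to 583330 in the control-virus and 1303800 to 1444100 in the WNT5B libraries. S100b went from 4719, 4749 and 4554 to 77784, 80022 and 66352 (log2 difference 3.99 ± 0.09 (SE), adjusted p = 6.75e-13; corrected 3.54). Slc1a2, the main glutamate transporter, fell from 111441, 110564 and 111731 to 34906, 33938 and 32621 (log2 difference -1.72 ± 0.05 (SE), adjusted p = 1.99e-11; corrected -0.48). Among 25 genes of reactive astrocytes 5 rose and 6 fell, with a median of -0.99 (-0.59 corrected). Stat3, which drives the reactive state, was at 6952, 7220.4 and 7182 against 1875, 1703 and 1943 (log2 difference -1.95 ± 0.11 (SE), adjusted p = 2.79e-09). C4b, a complement component of reactive astrocytes, rose from 8850.1, 9010.04 and 9237 to 13182, 16202 and 15877 (log2 difference 0.73 ± 0.09 (SE), adjusted p = 8.44e-06), but not with equal totals (0.18, adjusted p = 0.0788).

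Among microglial genes, Cx3cr1 stood out in size. Of 20 homeostatic markers 5 rose and 2 fell, against 28.3% and 25.9% of all genes tested. Their median log2 difference was 0.30 (0.49 corrected) and their summed value 19001 to 19177 against 53977 to 59310. Cx3cr1, the fractalkine receptor, went from 594, 572 and 597 to 20611, 21166 and 18043 (log2 difference 5.07 ± 0.11 (SE), adjusted p = 7.39e-13; corrected 5.55). Siglech went from 423, 443 and 418 to 3520.1, 2992 and 2284 (log2 difference 2.75 ± 0.19 (SE), adjusted p = 3.74e-08). Of 18 tested genes of activated microglia 5 rose and 5 fell, near the shares over all genes tested. Their summed value was 272400 to 276040 in the control-virus and 1190000 to 1309100 in the WNT5B libraries. Much of that sum was Fth1, ferritin heavy chain, which many cell types express (106006, 106513 and 108460 against 675938, 745407 and 816515).

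Oligodendrocyte markers were mostly higher. Of 20 members 13 rose and 4 fell, with a median of 0.999 (0.861 corrected). Mal, a myelin protein, went from 22433, 22249.7 and 22449.9 to 77288, 79056 and 76632 (log2 difference 1.79 ± 0.05 (SE), adjusted p = 1.35e-11). Mobp fell, from 22599, 23205 and 22676 to 10315, 10095 and 9757 (log2 difference -1.18 ± 0.07 (SE), adjusted p = 6.61e-09), as did Myrf, the transcription factor of myelination (-1.83). Markers of other tissue parts differed by list. The choroid plexus gene Ttr went from 673, 677 and 687 to 10872, 12776 and 14320.3 (log2 difference 4.21 ± 0.11 (SE), adjusted p = 3.95e-12), and of 14 choroid and ependymal genes 5 rose and 1 fell. Of 7 tested blood genes 3 rose, among them the globin genes Hba-a1 (216, 216 and 221 against 3269.7, 3890.3 and 3665) and Hbb-bs (605, 543 and 566 against 5831, 6647 and 7250.2). Of 20 genes of vessels 5 rose and 9 fell: Cldn5, an endothelial tight junction gene, went from 1646, 1673 and 1718 to 30899, 29359 and 26434 (log2 difference 4.10 ± 0.09 (SE), adjusted p = 8.99e-13), while the pericyte gene Rgs5 went from 3444, 3519 and 3459 to 989, 970.2 and 783 (log2 difference -1.93 ± 0.14 (SE), adjusted p = 3.77e-08). Of 12 tested genes of meninges and fibroblasts 3 rose and 3 fell, near the shares over all genes tested, with a median log2 difference of -1.18. Cd3e, Ms4a1 and Nkg7, which define lymphocytes, were too low to test. The part of dissection or blood content in the other results was not tested.

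Receptors and channels of neurons went in either direction by gene. Of 34 glutamate and GABA receptor genes 13 rose and 10 fell, against 28.3% and 25.9% of all genes tested. Gabra2, a GABA-A receptor subunit, went from 2143, 2083 and 2142 to 29543, 28156 and 21942 (log2 difference 3.63 ± 0.10 (SE), adjusted p = 3.94e-12; corrected 4.96), while Gabra4, a subunit of the same receptor class, went from 13638, 13456 and 13452 to 2558, 2806 and 2029 (log2 difference -2.47 ± 0.10 (SE), adjusted p = 1.44e-10; corrected -1.62). Of 30 voltage-gated channel genes, whose median transcript is 8228 bases, 4 rose and 13 fell, and their median of -0.78 became -0.12 after correction. Kcnq3, a subunit of the M-current channel, fell (17882, 17600.5 and 17674 against 3055, 3667 and 2852; log2 difference -2.48 ± 0.09 (SE), adjusted p = 4.22e-11; corrected -1.21), and the potassium channel gene Kcna2 rose (17259, 17171 and 17483 against 64397, 68055 and 55842; log2 difference 1.85 ± 0.07 (SE), adjusted p = 7.48e-11; corrected 3.07). Of 25 synaptic vesicle genes 8 rose and 9 fell; Syt1, the calcium sensor of release, went from 66315, 65723 and 66064 to 10875, 10729.7 and 8816 (log2 difference -2.71 ± 0.07 (SE), adjusted p = 2.59e-12) and Cplx2, a complexin, from 103361, 103806 and 106976 to 658586, 656337 and 537837 (log2 difference 2.55 ± 0.08 (SE), adjusted p = 1.41e-11).

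Genes often taken as level references did not agree in direction. Gapdh, the glycolytic enzyme gene, fell from 70636, 71168 and 73030.2 to 15842, 15912 and 17938 (log2 difference -2.11 ± 0.07 (SE), adjusted p = 3.89e-11; corrected -2.0). Actb, beta-actin, rose from 91586, 91050.1 and 91874 to 465029, 435158 and 402759 (log2 difference 2.24 ± 0.06 (SE), adjusted p = 2.69e-12; corrected 1.92). Likewise the heat shock protein gene Hsp90aa1 rose from 34689, 34527 and 34707 to 560557, 576735 and 409132 (log2 difference 3.88 ± 0.08 (SE), adjusted p = 5.84e-13), while its paralog Hsp90ab1 fell from 93602, 94081 and 94976 to 50183, 52497 and 51678 (log2 difference -0.87 ± 0.06 (SE), adjusted p = 1.26e-08). Ratios of such pairs within a library do not depend on how libraries were scaled. They can depend on how reads were divided among genes of like sequence, which was not tested.

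Of the further lists, 19 circadian clock genes held 3 that rose and 10 that fell, and the activator Arntl went from 3602, 3520.2 and 3372 to 896, 638 and 495 (log2 difference -2.41 ± 0.19 (SE), adjusted p = 1.01e-07; corrected -1.87). Of 15 Notch pathway genes 2 rose and 7 fell: Notch1 went from 3449.7, 3501 and 3432 to 937, 731 and 600.4 (log2 difference -2.21 ± 0.16 (SE), adjusted p = 3.49e-08) and the target gene Hes5 from 51, 44.2 and 44.3 to 1219.9, 1639.98 and 1076 (log2 difference 4.71 ± 0.41 (SE), adjusted p = 2.75e-07). Of 28 matrix genes 2 rose and 8 fell, and Col6a1 went from 8273, 8469.5 and 8298 to 4291, 3376 and 3298 (log2 difference -1.20 ± 0.10 (SE), adjusted p = 1.39e-07). Of 20 immediate early genes 2 rose and 8 fell; Fos went from 973, 1015 and 1047 to 114, 127 and 157 (log2 difference -2.91 ± 0.32 (SE), adjusted p = 2.51e-06) and Npas4 from 408, 448 and 405 to 1833, 1503 and 1731 (log2 difference 2.0 ± 0.24 (SE), adjusted p = 5.57e-06). Of 23 tested genes of the beta-catenin branch 4 rose and 6 fell, with Apc, of the destruction complex, going from 24733, 25019 and 25157 to 5248, 3219 and 3244 (log2 difference -2.72 ± 0.12 (SE), adjusted p = 3.39e-10; corrected -1.45). Of 24 tested interferon and antigen presentation genes 1 rose and 2 fell, the lowest share called of the 45 lists with 16 of 24 not past the test in the deposited values.

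**Figure D5:**
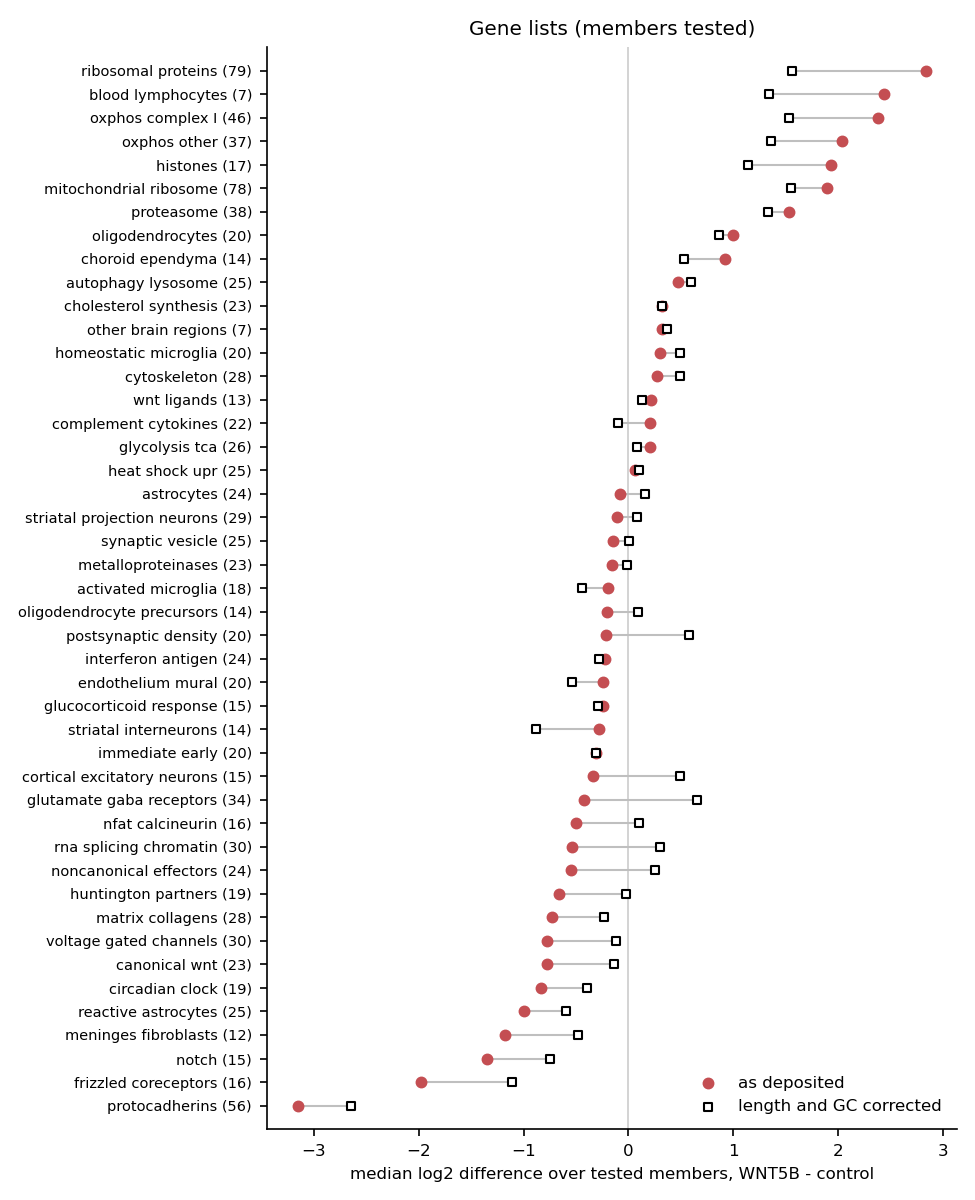
Median log2 difference (WNT5B minus control virus) over the tested members of each of the 45 gene lists, with the number of members in brackets, as deposited (circles) and after correction for length and GC (squares). Ribosomal proteins (2.84) and clustered protocadherins (-3.15) are the ends of the range, and both lie nearer to 0 after correction (1.57 and -2.65).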

How the data were processed

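The series holds 9 RNA-seq libraries of poly(A) RNA, of which 6 were compared. The submitters' processing notes name STAR and mm10; for the counting program and its annotation no source used here gives a name. The deposited files hold 1 signal value per gene for 21853 protein-coding genes: per the values, estimated read counts that the authors divided by 1 factor per library, since 96.2% to 98.6% of low values were whole multiples (within 0.01) of a common step, so that depth could be read from the step. Some values keep fractions of a read, so no count model was run. All IDs were matched to GENCODE M21 for symbols, coordinates, transcript length and GC content, and promoter windows came from RefSeq (GRCm38.p6). The kit named in the labels' protocols does not mark strand.

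Genes that reached a value of 10 in 3 or more of the 6 libraries were tested with limma 3.58.1 (R 4.3.3) on log2(value + 3). The fit had a weight per group, because the WNT5B libraries scatter more, a trend in the prior variance, and Benjamini-Hochberg adjustment over all genes tested, with an adjusted p of 0.05 as the threshold; a log2 difference on this scale understates the change of low genes. The corrected fit first removed a spline (5 degrees of freedom) on log2 transcript length and on GC content from each library. The scripts were tested on simulated data.

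The comparison and the 45 gene lists were chosen with earlier results of these data known. Named genes were Wnt5b, Mmp14, Nfatc2, Gfap and Htt, every member of the lists of Wnt ligands, receptors, non-canonical effectors, NFAT and calcineurin genes and metalloproteinases, the 15 largest rises and 15 largest falls (called in both fits, no overlap, mean of at least 100 in the higher group, no unnamed gene models), and, from other lists, some of the 4 members with the highest mean and the 4 with the smallest p. Alternatives covered the library set, the spread, scaling, added constant, low-value filter, replicate block and each library left out. Results for some single genes are not reported here.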

Additional observations from a re-analysis of the deposited data

How the results depend on the processing

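The number of called genes, 10827, was 9718 to 11796 in the alternatives that left out no library, except with a mean of at least 1000, where 7489 of 8586 genes tested were called. After correction for length and GC it was 9899 of 15103. With each library left out in turn it was 9690 to 10905 (8765 to 9925 corrected). The share of called genes that were higher, 45.69%, was 45.05% with all 9 libraries and a weight per group, 47.79% with 1 spread for both groups, 46.78% with all 9 libraries and 1 spread, 45.35% with upper-quartile, 43.43% with trimmed-mean and 44.95% with median-of-ratios factors, 45.07% and 46.4% with an added constant of 1 and 10, 45.35% without a filter, 47.71% and 50.54% with a mean of at least 100 and 1000, and 45.88% to 46.16% with a library left out. It was 30.9% with equal totals, 55.82% after correction for length and GC, 55.58% for length alone and 55.94% to 57.1% corrected with a library left out. The gap in median log2 difference between the shortest and longest genes, 2.126, was 0.321 after correction, 0.34 after correction for length alone, 1.282 without a filter, 2.347 and 2.632 with a mean of at least 100 and 1000, 2.031 to 2.21 with a library left out and 0.305 to 0.354 corrected with a library left out; the cause of these shifts was not tested beyond what each alternative changes. Same-numbered libraries were not treated as pairs, since their deviations from the group means correlated at 0.036, 0.021 and 0.019 only, although each library correlated best with its own number. The replicate block gave 10596 called genes (46.85% higher), and with the correction 9718 (56.86% higher, gap 0.321).

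A sign was counted as turned where the value passed the test on either side. By that count none of 180 named genes turned under 1 spread, other factors (equal totals apart), added constants, filters, the block or a library left out without correction. With equal totals the sign turned for Daam1 (-0.197), Dvl1 (-0.158), Prickle1 (-0.14), Rac1 (-0.291), Rcan2 (-0.008) and Timp4 (-0.159) on the log2 scale. After correction for length and GC it turned for Adam10 (0.113), Camk2d (0.897), Htt (0.289), Itpr1 (0.418), Mapk10 (0.664), Mapk9 (0.255), Mmp17 (0.322), Ppp3cb (0.858), Prickle2 (0.518), Prkca (0.841), Rcan3 (0.53), Rhoa (0.246) and Rock1 (0.055), and after correction for length alone for Cabin1 (0.275), Camk2b (0.023), Camk2d (0.637), Celsr2 (0.475), Celsr3 (0.021), Htt (0.539), Itpr1 (0.53), Mapk10 (0.508), Mapk9 (0.049), Mmp17 (0.807), Nfatc2 (0.92), Ppp3cb (0.358), Prickle2 (0.479), Prkca (0.742), Rcan3 (0.666) and Timp2 (0.273). With the block and the correction it turned for Adam10 (0.113), Camk2d (0.897), Htt (0.289), Itpr1 (0.418), Mapk10 (0.664), Mapk9 (0.255), Ppp3cb (0.858), Prickle2 (0.518), Prkca (0.841), Rcan3 (0.53), Rhoa (0.246) and Rock1 (0.055). With a library left out, values over both fits (lowest uncorrected, highest corrected) spanned 0 for Adam10 (-0.935 to 0.218), Adam17 (-0.945 to 0.102), Camk2d (-0.24 to 0.958), Htt (-0.624 to 0.362), Itpr1 (-0.626 to 0.437), Mapk10 (-0.517 to 0.717), Mapk9 (-0.668 to 0.315), Mmp17 (-0.186 to 0.42), Nfatc2 (-0.267 to 0.712), Nfatc3 (-1.186 to 0.205), Ppp3cb (-0.085 to 0.877), Prickle2 (-0.609 to 0.589), Prkca (-0.359 to 0.97), Rcan3 (-0.056 to 0.58), Rhoa (-0.804 to 0.392) and Rock1 (-1.495 to 0.261). These ranges are given only for genes whose sign turned in such a fit by the count above. Genes that passed in neither fit, such as Vangl1 and Wnt5a, could not enter, although their signs also differed between the fits. The median sign was kept in 34 of 45 lists after correction and in 36 with equal totals. Tests of recovered counts were not run, since values keep fractions of a read. Depth limits the WNT5B libraries more: 3 reads are a value of 4.82 to 6.43 there and of 1.85 to 2.39 in the control-virus libraries.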
